A study of Mus musculus with 10 samples.

Results

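The caveolin and cavin genes and 3 genes for caveola accessory proteins were examined across normal liver and 2 kinds of liver tumor in the mouse. The genes were found by symbol, as Cav1, Cav2, Cav3, Cavin1, Cavin2, Cavin3, Ehd2, Pacsin2 and Pacsin3, which are 9 of the 16697 gene entries in the table. They were picked with their expression in these same libraries known, above all the high levels in one tumor group, so their differences between groups are given as descriptions without a test. All 9 had an FPKM (fragments per kilobase of gene length, relative to the size of the library) of at least 1 in at least 3 of the 10 libraries, the limit set for a gene to enter the fit. Cav3 met that limit only through the group in which it was high.

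RNA sequencing covered 10 libraries in 3 groups. Normal liver (NL, n = 4) came from wild-type mice and is labeled as normal liver. c-MYC tumors (c-MYC, n = 3) grew after hydrodynamic tail vein injection, in which plasmids are pushed into hepatocytes and the sleeping beauty transposase inserts them into the genome, of c-MYC together with an empty pT3-EF1α vector. The methods and the plasmid list of the study give this mix, whereas one of its figure legends names c-MYC/MCL1 with the empty vector for the control mice. c-MYC/FOXO1AAA tumors (n = 3) received c-MYC with FOXO1AAA, a Myc-tagged FOXO1 that AKT can no longer switch off. Both inserts sit in plasmids with the EF1α promoter, which is not specific to hepatocytes. The labels give C57BL/6 and wild type for every library, whereas the extraction protocol and the methods of the study give FVB or FVB/N. Both sexes were used in the study, and age, sex and animal are not given per library. The methods of the study speak of RNA from injected mice, 3 for each plasmid mix, and from 4 normal livers, whereas no label ties a library to an animal. The p-values measure the spread between these libraries.

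Caveolae are flask-shaped pits of the plasma membrane that are rich in cholesterol. Caveolins are wedge-shaped membrane proteins that form the core of the coat: caveolin-1 is needed for caveolae outside muscle, caveolin-2 assembles with caveolin-1, and caveolin-3 is the muscle form. Cavins are cytosolic proteins that assemble around the caveolin core; cavin-1 is needed for a stable coat, cavin-2 helps to curve the membrane and cavin-3 binds signaling proteins. EHD2 is an ATPase that sits at the neck of caveolae and holds them at the surface, and pacsin-2 and pacsin-3 are F-BAR proteins that bend membrane. Endothelial cells, adipocytes, fibroblasts and muscle cells carry many caveolae, and hepatocytes few.

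The genes lie on 6 chromosomes of the mouse genome (build GRCm38, GENCODE release M21). Cav2 (chr6:17281185-17289115, plus strand) and Cav1 (chr6:17306335-17341452, plus strand) are neighbors, with 17219 bp between the end of Cav2 and the start of Cav1. Cav3 is on the same chromosome (chr6:112459505-112472872). Cavin1 is on chr11:100956733-100970887, Cavin2 on chr1:51289126-51302960 and Cavin3 on chr7:105480083-105482300. Ehd2 is on chr7:15946958-15967567, Pacsin2 on chr15:83375607-83464606 and Pacsin3 on chr2:91255954-91264679.

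Promoter windows of 250 bases before the transcription start were taken from RefSeq (GRCm38.p6), which held 13 windows for 8 of the 9 genes. Windows of 5 genes with high levels in c-MYC/FOXO1AAA are shown, to show how far their base composition differs. They are written 5′ to 3′ on the strand of the gene, in lower case with CG dinucleotides in capitals. The positions are chr6:17306085-17306334 for Cav1, chr6:17280935-17281184 for Cav2, chr6:112459255-112459504 for Cav3, chr11:100970618-100970867 on the minus strand for Cavin1 and chr1:51288876-51289125 for Cavin2.
Cav1: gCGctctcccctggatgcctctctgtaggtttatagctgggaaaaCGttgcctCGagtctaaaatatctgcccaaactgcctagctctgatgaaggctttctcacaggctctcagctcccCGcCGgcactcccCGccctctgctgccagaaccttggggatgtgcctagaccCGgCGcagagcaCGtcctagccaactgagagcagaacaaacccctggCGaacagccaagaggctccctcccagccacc
Cav2: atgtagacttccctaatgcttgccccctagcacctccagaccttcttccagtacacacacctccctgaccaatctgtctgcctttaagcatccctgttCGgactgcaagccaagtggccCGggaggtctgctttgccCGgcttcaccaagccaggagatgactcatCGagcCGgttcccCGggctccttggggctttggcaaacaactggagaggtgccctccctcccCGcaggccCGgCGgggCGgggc
Cav3: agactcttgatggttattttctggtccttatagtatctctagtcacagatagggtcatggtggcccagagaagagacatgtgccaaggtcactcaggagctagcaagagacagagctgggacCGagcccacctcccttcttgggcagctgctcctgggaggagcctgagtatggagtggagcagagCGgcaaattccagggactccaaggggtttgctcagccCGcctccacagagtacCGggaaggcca
Cavin1: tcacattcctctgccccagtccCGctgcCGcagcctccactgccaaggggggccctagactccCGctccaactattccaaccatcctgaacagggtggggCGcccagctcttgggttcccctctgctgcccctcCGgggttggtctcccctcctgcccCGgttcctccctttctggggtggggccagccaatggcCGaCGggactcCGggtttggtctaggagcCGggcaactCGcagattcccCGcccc
Cavin2: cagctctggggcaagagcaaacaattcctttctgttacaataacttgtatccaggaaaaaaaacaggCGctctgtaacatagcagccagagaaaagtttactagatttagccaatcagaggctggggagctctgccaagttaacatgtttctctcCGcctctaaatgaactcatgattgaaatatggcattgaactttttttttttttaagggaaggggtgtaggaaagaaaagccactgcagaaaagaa

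The windows of Cav1 and Cav2 each held 10 CG dinucleotides and that of Cavin1 held 12, above the median of 6 over the 32817 windows of all genes. Cav3 had 4 and Cavin2 had 2, and the Cavin2 window was 40.4% G and C against a median of 52.4%. Short motifs were searched on both strands of each window. The FOXO core GTAAACA was in none of the 13 windows and in 3.16% of all windows, and the insulin response core CAAAACA was in none of the 13 and in 5.56% of all. The MYC E-box CACGTG was in none of the 13 and in 6.02% of all. The muscle E-box CAGCTG, to which myogenic factors bind, was in 4 of the 13 windows and in 13.0% of all. The Cav3 window held it at -106 to -101 from the start, and the others were in windows of Ehd2, Pacsin2 and Pacsin3. An absent motif says only that these letters are not in the window.

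Reads in genes, recovered from the deposited values, numbered 13123719 to 20547746 per library. Foxo1, the gene that the construct carries, was between 5.17 and 6.46 FPKM in c-MYC, with a median of 5.26, and between 70.1 and 95.6 FPKM in c-MYC/FOXO1AAA, with a median of 83.6. The 2 ranges do not overlap, and NL lay between 6.69 and 7.87 FPKM. Myc does not check the labels, since whether reads of the c-MYC plasmid were counted in it is not given in the sources used here. Mcl1 was at 234.5 to 250.7 FPKM in c-MYC, 155.0 to 162.6 in c-MYC/FOXO1AAA and 184.8 to 209.7 in NL. Whether reads of an MCL1 plasmid would be counted in Mcl1 is not given either. The 6 hepatocyte markers, led by Alb and Ttr, summed to between 79350 and 89270 FPKM in NL, between 3171 and 4978 in c-MYC and between 857 and 1535 in c-MYC/FOXO1AAA. In bulk tissue, fewer cells of a type and less RNA per cell cannot be told apart, which holds for every level below.

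**Figure D1:**
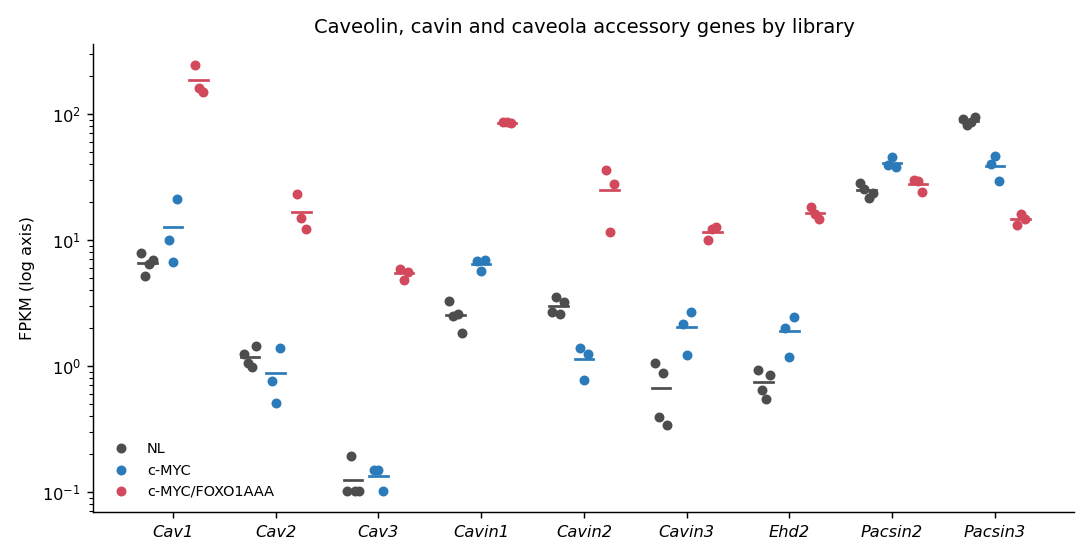
FPKM of the 9 genes (log axis) in each of the 10 libraries; dots are libraries, bars are group means, and colors give the groups NL, c-MYC and c-MYC/FOXO1AAA. Libraries of the last group lie above the others for Cav1, Cav2, Cav3, Cavin1, Cavin2, Cavin3 and Ehd2, and below them for Pacsin3.

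Caveolin transcripts were low in normal liver, overlapped it in c-MYC tumors and were many-fold higher in c-MYC/FOXO1AAA tumors. Cav1 stood at 7.87, 5.21, 6.37 and 6.92 FPKM in the 4 NL libraries, at 9.97, 6.69 and 21.1 FPKM in the 3 c-MYC libraries and at 243, 161 and 150.1 FPKM in the 3 c-MYC/FOXO1AAA libraries. c-MYC overlapped NL, and all c-MYC/FOXO1AAA libraries stood far above both. On the log2 scale, Cav1 was 0.78 ± 0.34 (SE) higher in c-MYC than in NL and 4.01 ± 0.36 (SE) higher in c-MYC/FOXO1AAA, by 16.1-fold, when set against c-MYC. The reads behind these values numbered 29 to 52 per library in NL, 75 to 235 in c-MYC and 1802 to 3663 in c-MYC/FOXO1AAA. The first of these differences was 0.32 without c-MYC 3, and with equal FPKM totals it was 1.71.

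Cav2, the partner of Cav1, was at 1.24, 1.05, 0.980 and 1.43 FPKM in NL, at 0.761, 0.509 and 1.38 FPKM in c-MYC and at 23.0, 14.8 and 12.2 FPKM in c-MYC/FOXO1AAA. The c-MYC values spanned those of NL, and the c-MYC/FOXO1AAA values lay above both. Its log2 difference was -0.52 ± 0.34 (SE) for c-MYC against NL, a direction that turned to 0.41 when all libraries were scaled to the same FPKM total. For c-MYC/FOXO1AAA against c-MYC it was 4.31 ± 0.36 (SE), or 19.8-fold, and for c-MYC/FOXO1AAA against NL it was 3.79 ± 0.34 (SE). Within each tumor group, Cav2 followed Cav1 in a nearly fixed proportion. In NL, with 29 to 52 reads for Cav1 and 25 to 36 for Cav2, the 2 genes ordered the libraries differently. The FPKM of Cav2 divided by that of Cav1 was 0.154 to 0.207 in NL, 0.0654 to 0.0763 in c-MYC and 0.0816 to 0.0947 in c-MYC/FOXO1AAA. The 3 ranges do not touch.

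Cav3, the muscle caveolin, was practically absent from NL and c-MYC. It had 0, 1, 0 and 0 reads in NL and 1, 1 and 0 reads in c-MYC. c-MYC/FOXO1AAA had 164, 163 and 124 reads, or 5.86, 4.82 and 5.57 FPKM. Set against 3 reads per library, Cav3 in c-MYC/FOXO1AAA was at least 33.4-fold higher than c-MYC and at least 16.3-fold higher than NL. No fold is given between c-MYC and NL, where both groups were at or under 3 reads. A bound of this kind takes only counting error into account.

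The cavins were likewise highest in c-MYC/FOXO1AAA, but they did not share a direction between NL and c-MYC. Cavin1, which stabilizes the caveolar coat, was at 3.25, 2.46, 2.56 and 1.82 FPKM in NL, at 6.76, 5.64 and 6.96 FPKM in c-MYC and at 86.4, 85.6 and 83.8 FPKM in c-MYC/FOXO1AAA. The 3 groups were fully separate. Within c-MYC/FOXO1AAA it had the smallest coefficient of variation of the 9 genes, 1.56%, against 27.4% for Cav1 and 49.6% for Cavin2. The log2 difference was 1.38 ± 0.17 (SE) for c-MYC against NL, 3.73 ± 0.18 (SE) for c-MYC/FOXO1AAA against c-MYC and 5.11 ± 0.17 (SE), or 34.5-fold, for c-MYC/FOXO1AAA against NL.

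Cavin2 took the opposite course between normal liver and c-MYC tumors. It was at 2.68, 3.51, 2.59 and 3.21 FPKM in NL, at 1.38, 0.768 and 1.23 FPKM in c-MYC and at 35.8, 11.5 and 27.5 FPKM in c-MYC/FOXO1AAA. Every c-MYC library was below every NL library, and the second c-MYC/FOXO1AAA library was the lowest of its group by a wide margin. The log2 difference was -1.44 ± 0.35 (SE) for c-MYC against NL, 4.36 ± 0.38 (SE) for c-MYC/FOXO1AAA against c-MYC and 2.92 ± 0.35 (SE) for c-MYC/FOXO1AAA against NL. Relative to Cavin1, Cavin2 was at 0.824 to 1.76 in NL, at 0.136 to 0.204 in c-MYC and at 0.134 to 0.414 in c-MYC/FOXO1AAA. The tumor groups overlapped in this ratio, and both were below NL.

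Cavin3, the signaling-linked cavin, was at 1.05, 0.390, 0.872 and 0.339 FPKM in NL, from as few as 4 reads, at 2.14, 1.22 and 2.69 FPKM in c-MYC and at 9.96, 12.3 and 12.6 FPKM in c-MYC/FOXO1AAA. The groups did not overlap. Its log2 difference was 1.70 ± 0.42 (SE) for c-MYC against NL, 2.59 ± 0.45 (SE) for c-MYC/FOXO1AAA against c-MYC and 4.29 ± 0.42 (SE) for c-MYC/FOXO1AAA against NL.

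Ehd2, whose protein holds caveolae at the surface, had the same order of groups as Cavin1. It was at 0.925, 0.645, 0.543 and 0.850 FPKM in NL, at 1.99, 1.18 and 2.46 FPKM in c-MYC and at 18.2, 15.9 and 14.7 FPKM in c-MYC/FOXO1AAA. No 2 groups overlapped. The log2 difference was 1.31 ± 0.28 (SE) for c-MYC against NL, 3.17 ± 0.30 (SE), or 9.03-fold, for c-MYC/FOXO1AAA against c-MYC and 4.48 ± 0.28 (SE) for c-MYC/FOXO1AAA against NL. Ehd2 divided by Cavin1 was 0.2125 to 0.467 in NL, 0.210 to 0.353 in c-MYC and 0.176 to 0.2105 in c-MYC/FOXO1AAA. Cavin3 divided by Cavin1 was 0.158 to 0.341 in NL, 0.216 to 0.387 in c-MYC and 0.115 to 0.1505 in c-MYC/FOXO1AAA. In the second ratio the c-MYC/FOXO1AAA libraries were below all others, and Cavin1 divided by Cav1 overlapped in all 3 groups, between 0.263 and 0.844.

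The pacsins, membrane benders with roles outside caveolae as well, did not show the high levels of the other genes in c-MYC/FOXO1AAA. Pacsin2 was at 28.2, 25.4, 21.6 and 23.7 FPKM in NL, at 39.2, 45.1 and 37.6 FPKM in c-MYC and at 29.6, 29.2 and 24.0 FPKM in c-MYC/FOXO1AAA. Its c-MYC libraries were above both other groups, which overlapped each other. The log2 difference was 0.72 ± 0.12 (SE) for c-MYC against NL and -0.56 ± 0.13 (SE) for c-MYC/FOXO1AAA against c-MYC. Against NL, c-MYC/FOXO1AAA differed by 0.16 ± 0.12 (SE), and with equal FPKM totals by 1.26, where the groups no longer overlapped. Pacsin3 fell stepwise over the groups, from 91.0, 81.9, 85.9 and 94.0 FPKM in NL to 40.03, 46.0 and 29.4 FPKM in c-MYC and 13.2, 16.0 and 14.6 FPKM in c-MYC/FOXO1AAA. The 3 groups were separate, with a log2 difference of -1.22 ± 0.14 (SE) for c-MYC against NL and -1.38 ± 0.15 (SE) for c-MYC/FOXO1AAA against c-MYC. Pacsin3 divided by Pacsin2 was 3.23 to 3.98 in NL, 0.781 to 1.02 in c-MYC and 0.446 to 0.607 in c-MYC/FOXO1AAA.

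**Figure D2:**
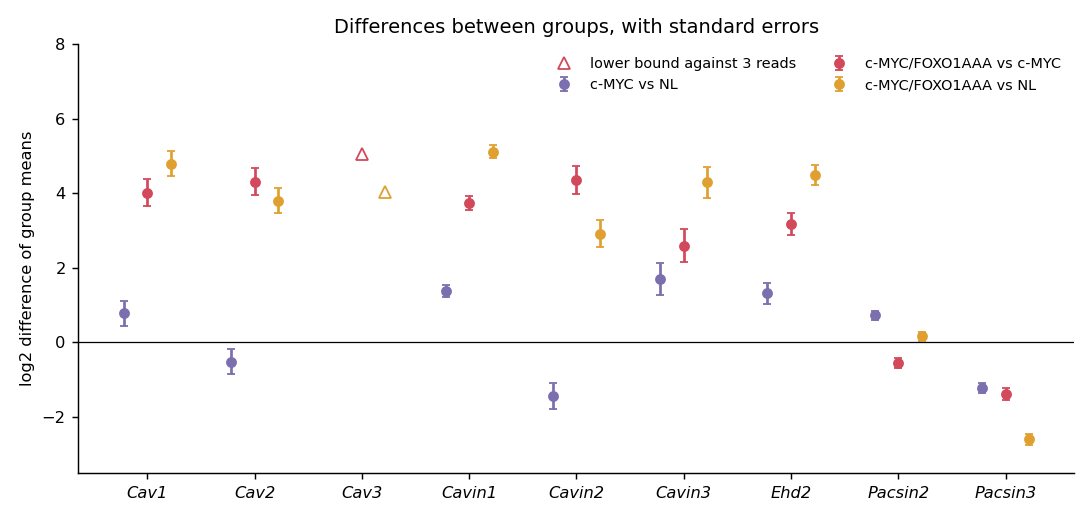
Log2 differences between group means for each gene in 3 comparisons (y axis); points are fitted differences, bars their standard errors, and open triangles lower bounds for Cav3 against 3 reads. Apart from the pacsins, all genes lie at 2.59 or more for c-MYC/FOXO1AAA against c-MYC.

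Between c-MYC/FOXO1AAA and c-MYC, the libraries of the 2 groups did not overlap for any of the 9 genes, with 7 higher and 2 lower. Over the 14017 genes that entered the fit, 32.7% were higher without overlap and 30.7% lower. Since the genes were picked on this comparison, nothing is read from the count. For c-MYC against NL, 4 were higher, 2 lower and 3 overlapped, beside 39.0% and 34.9% of all genes. With equal FPKM totals these became 5 higher and 1 lower, as Cav1 separated upward and Pacsin3 came to overlap. For c-MYC/FOXO1AAA against NL, 7 were higher and 1 lower, beside 44.1% and 36.0% of all genes. The median log2 difference of the 9 genes was 3.73 for c-MYC/FOXO1AAA against c-MYC, where the median of all genes was 0.03. The other medians were 0.72 beside 0.08 for c-MYC against NL and 4.29 beside 0.21 for c-MYC/FOXO1AAA against NL. Scaling to the same FPKM total moved all c-MYC differences from NL up by 0.93, those of c-MYC/FOXO1AAA from NL by 1.10 and those between the tumor groups by 0.17 on the log2 scale. The share of higher genes among all calls went from 51.0% to 78.8% in c-MYC against NL and from 54.0% to 79.5% in c-MYC/FOXO1AAA against NL.

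The order of the genes within a group depended on the gene length behind each FPKM. Cav1 had been divided by 613 bp, the length of its transcript Cav1-203, although its longest annotated transcript has 2746 bp. Pacsin3 had been divided by 806 bp, with a longest transcript of 1993 bp. The other genes had the length of their longest transcript, or nearly so (Pacsin2, 3083 of 3693 bp). Differences between groups are unaffected by this, but levels between genes are. Put on the longest transcript of each gene, the level in c-MYC/FOXO1AAA was 85.3 ± 1.33 (SD, n = 3) for Cavin1 and 41.2 ± 11.3 (SD, n = 3) for Cav1, which reversed their deposited order of 85.3 and 185 FPKM. Below them came Cavin2 at 24.9 ± 12.4, Pacsin2 at 23.0 ± 2.61, Cav2 at 16.7 ± 5.62 and Ehd2 at 16.3 ± 1.76 (SD, n = 3), each overlapping the next from Cav1 down to Ehd2. Cavin3 at 11.6 ± 1.45 was apart from Ehd2 above it and Pacsin3 below it, but its libraries overlapped those of Cav2 and Cavin2. Pacsin3 at 5.90 ± 0.571 overlapped Cav3 at 5.41 ± 0.535 (SD, n = 3). In NL the same scale placed Pacsin3 first at 35.7 ± 2.18 and Pacsin2 next at 20.6 ± 2.33 (SD, n = 4). Cavin2 at 3.00 ± 0.440 and Cavin1 at 2.52 ± 0.584 overlapped, Cav1 at 1.47 ± 0.248 and Cav2 at 1.17 ± 0.201 overlapped, and Ehd2 at 0.741 ± 0.177 overlapped Cavin3 at 0.663 ± 0.353 (SD, n = 4). In c-MYC, Pacsin2 at 33.9 ± 3.29 and Pacsin3 at 15.6 ± 3.40 were followed by Cavin1 at 6.45 ± 0.708 (SD, n = 3). Then came Cav1 at 2.81 ± 1.68, Cavin3 at 2.02 ± 0.743, Ehd2 at 1.88 ± 0.645, Cavin2 at 1.13 ± 0.318 and Cav2 at 0.883 ± 0.447 (SD, n = 3), each overlapping the next.

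Several of the genes ordered the c-MYC libraries alike. Cav1, Cav2, Cavin1, Cavin3 and Ehd2 were all highest in c-MYC 3, next in c-MYC 1 and lowest in c-MYC 2. The same order held for 11 of 16 endothelial markers, among them Pecam1 and Cdh5, for 4 of 7 smooth muscle and pericyte markers, among them Acta2, and for 5 of 9 fibroblast and stellate cell markers, among them Col1a1. With ties counted, it also held for 4 of 8 skeletal muscle, 3 of 6 macrophage, 2 of 4 mesothelial and 1 of 2 adipocyte markers. Of the biliary markers 1 of 5 had it, and of the hepatocyte markers 1 of 6. How common this order is over all genes was not computed. The endothelial genes Kdr, Emcn, Vwf, Tek and Stab2 and the smooth muscle and pericyte genes Myh11, Cspg4 and Des had other orders. In c-MYC/FOXO1AAA, Cav1, Cav2, Cavin1, Ehd2 and Pacsin2 were highest in library 1 and lowest in library 3, although Cavin1 varied by only 1.56% (coefficient of variation). Cdh5, alone among the 16 endothelial markers, shared this order, as did Pdgfrb, alone among the 7 smooth muscle and pericyte markers. None of the 9 fibroblast and stellate cell markers did. Cavin2 had its own order there, with library 1 above 3 above 2. Cldn5, an endothelial tight junction gene that is mentioned because its values were seen to run alike, had 19.2, 6.28 and 16.5 FPKM in those 3 libraries.

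The genes most like Cav1 and Cavin1 were sought by the root mean square difference of log2 FPKM over the 10 libraries, with each gene centered on its own mean. The 5 nearest to Cav1 outside the 9 genes were Rftn1 at 0.302, Gm9050 at 0.3075, Shroom4 at 0.335, Gm6356 at 0.356 and Fbn1 at 0.384, where the median over all genes was 2.11. Rftn1 encodes a lipid raft protein, Shroom4 an actin-binding protein and Fbn1 fibrillin-1 of the extracellular matrix. Gm9050 and Gm6356 are predicted genes, with 0 reads in each NL library, and their reads may be shared with other copies. Fbn1 averaged 0.217 ± 0.0356 FPKM (SD) over NL, 0.403 ± 0.222 over c-MYC and 5.69 ± 1.11 over c-MYC/FOXO1AAA, with 4, 3 and 3 libraries. Nearest to Cavin1 were Klhl23 at 0.238, Mical1 at 0.246, Ctxn1 at 0.2965, Ppic at 0.303 and Col5a2 at 0.3505. Ppic, which encodes cyclophilin C, averaged 1.77 ± 0.349, 4.25 ± 0.435 and 82.8 ± 14.0 FPKM (SD) over the same groups. Among the 9 genes, Ehd2 was the closest to Cav1 at 0.4135, ahead of Cavin1 at 0.478 and of Cav2 at 0.593. Cavin2 was at 1.125 from Cav1, and the pacsins were at 2.16 and 3.16. The 10 libraries form 3 groups, so a small distance mainly means like group means, and it says nothing about shared control.

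**Figure D3:**
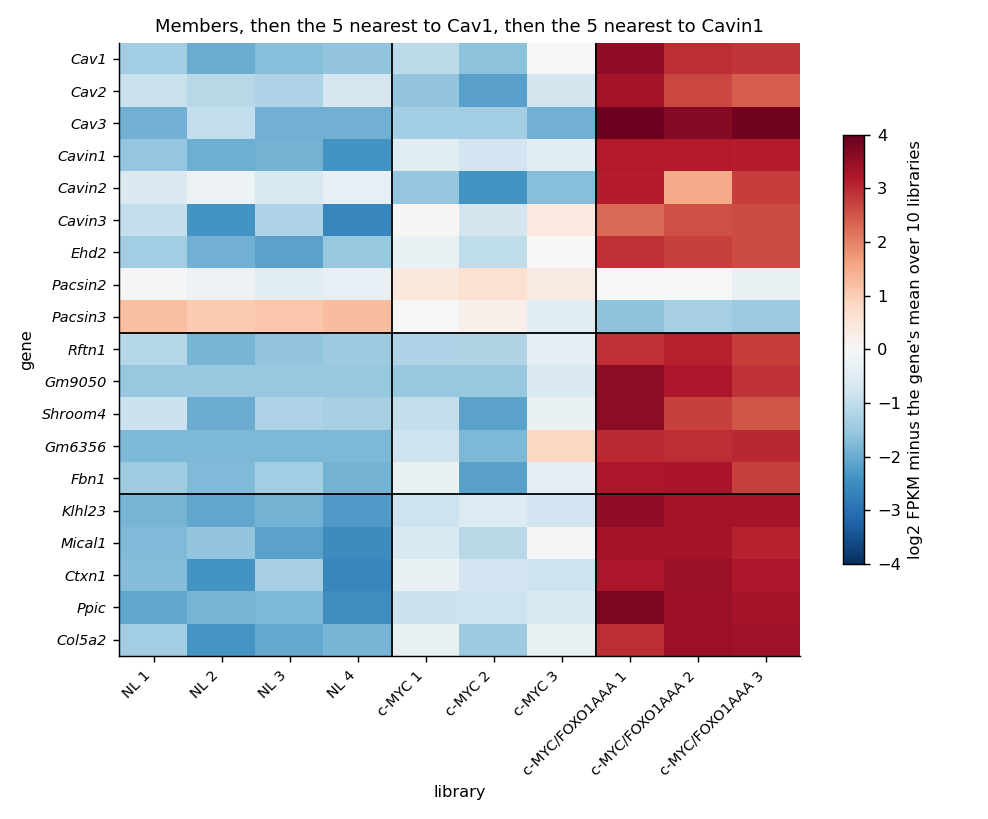
Log2 FPKM of each gene minus its mean over the 10 libraries (color), with libraries as columns and genes as rows. The upper block holds the 9 genes, the middle block the 5 nearest to Cav1 and the lower block the 5 nearest to Cavin1; Cavin2 and the pacsins stand apart from the rest of the upper block.

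Genes that work with caveolae were looked at next, as 31 companions of the 9 genes. Of these, 30 were in the table and 28 were tested with limma against a 1.5-fold threshold, at a Benjamini-Hochberg adjusted p under 0.05. Between c-MYC/FOXO1AAA and c-MYC, 8 rose and 7 fell, where 15.9% of all genes rose and 12.7% fell, and the median log2 difference was -0.08 beside 0.03 over all genes. In the membrane-shaping group, Cavin4, the muscle cavin, rose by 2.82 ± 0.49 (SE) on the log2 scale (adjusted p = 0.00249). It was at 0.349, 0.342 and 0.561 FPKM in c-MYC and at 3.77, 1.85 and 3.41 FPKM in c-MYC/FOXO1AAA. Cavin4 reached 1 FPKM only in the latter group and entered the fit through it alone. The paralogs of Ehd2, which sort membrane in endosomes, moved in both directions. Ehd3 rose by 2.95 ± 0.20 (SE, adjusted p = 2.57e-06) and Ehd4 by 1.95 ± 0.22 (SE, adjusted p = 0.000301), and Ehd1 had a log2 difference of -1.28 ± 0.16 (SE, adjusted p = 0.00297).

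Among raft scaffolds, Flot1, a flotillin, rose by 0.97 ± 0.13 (SE) on the log2 scale (adjusted p = 0.0245). Erlin1, a raft protein of the endoplasmic reticulum, fell by 1.69 (SE 0.15, adjusted p = 7.69e-05). In lipid handling no gene rose, and Scarb1, the receptor for high-density lipoprotein, fell by 1.20 (SE 0.10, adjusted p = 0.000375), as did Abca1, a cholesterol exporter, by 1.26 (SE 0.19, adjusted p = 0.00933). Signaling partners split evenly. Egfr, the epidermal growth factor receptor, rose by 3.57 ± 0.41 (SE, adjusted p = 0.000106) from a very low c-MYC level of 0.113 to 0.370 FPKM, and Bmpr2 rose by 1.29 ± 0.16 (SE, adjusted p = 0.00354). Fyn, a Src family kinase, fell by 1.58 (SE 0.26, adjusted p = 0.00646) and Insr, the insulin receptor, by 1.02 (SE 0.14, adjusted p = 0.022). In the cytoskeleton group, Flna, whose product ties caveolae to actin filaments, rose by 2.63 ± 0.16 (SE, adjusted p = 1.72e-06), from 4.18, 4.20 and 5.54 FPKM to 29.3, 31.8 and 24.9 FPKM. Trpv4, a stretch-sensitive channel, rose by 2.04 ± 0.46 (SE, adjusted p = 0.0195), and Diaph1, a formin, fell by 1.13 (SE 0.13, adjusted p = 0.00422). Trpv4 reached 1 FPKM only in c-MYC/FOXO1AAA and entered the fit through that group alone. The calls of Flot1, Insr and Trpv4 were lost when c-MYC 2 was left out (adjusted p = 0.0894, 0.0813 and 0.0689). Without c-MYC/FOXO1AAA 1, those of Insr (adjusted p = 0.0912) and Trpv4 (adjusted p = 0.0722) were lost, and without c-MYC/FOXO1AAA 2 that of Flot1 (adjusted p = 0.0796). With equal FPKM totals Insr was no longer called, and with quantile normalization neither were Bmpr2 and Trpv4.

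For c-MYC against NL, 7 companions rose and 5 fell, beside 24.5% and 23.6% of all genes. Those that rose were Ehd1, Ehd4, Cavin4, the kinases Src, Fyn and Abl1 and the stretch channel Piezo1, with Cavin4 at least 1.75-fold higher against 3 reads, a call that a pseudocount of 1 (adjusted p = 1 in limma) and a 2-fold threshold (adjusted p = 0.0513 in limma) did not give, and Ehd4 at 1.84 ± 0.205 (SE, adjusted p = 0.000184) on the log2 scale. Those that fell were Ehd3, Stom, Abca1, Npc1 and Egfr. Egfr fell by 8.10 (SE 0.38, adjusted p = 4.49e-08) and Ehd3 by 4.05 (SE 0.18, adjusted p = 4.05e-08), so that both were lower in c-MYC than in either other group. With equal FPKM totals, 18 rose and 4 fell, beside 7061 and 1895 of all 14017 genes, and Abca1 was no longer called. The call of Abca1 (adjusted p = 0.0336) was also lost without NL 1, NL 4, c-MYC 1 or c-MYC 3, at adjusted p from 0.0618 to 0.145. For c-MYC/FOXO1AAA against NL, 7 companions rose (Cavin4, Ehd4, Bin1, Src, Flna, Piezo1 and Trpv4) and 8 fell (Ehd3, Stom, Erlin1, Scarb1, Abca1, Npc1, Egfr and Insr), beside 31.2% and 26.6% of all genes. Cavin4 was at least 11.0-fold higher, and Flna rose by 3.46 ± 0.15 (SE, adjusted p = 2.16e-08). Cavin4 and Trpv4 entered the fit only through c-MYC/FOXO1AAA. When FPKM totals were set equal, 17 companions rose and 4 fell, beside 8129 and 2099 of all 14017 genes. Ehd3, Stom, Erlin1 and Insr were then no longer called lower. Without c-MYC/FOXO1AAA 3 the call of Ehd3 (adjusted p = 0.0164) was lost, at adjusted p = 0.054.

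The genes around Cav1 and Cav2 on chromosome 6 were compared with the pair. Of 8 neighbors, 7 were in the table and were tested. The nearest on either side, Tes at -200.5 kb and Met at 157.5 kb between its nearest end and the start of Cav1, did not rise with the pair between c-MYC and c-MYC/FOXO1AAA. Tes, which encodes testin of focal adhesions, fell by 1.86 (SE 0.42, adjusted p = 0.0235) on the log2 scale, and Met, the hepatocyte growth factor receptor, had a difference of 0.05 ± 0.20 (SE) and was not called. Tfec, a transcription factor at -407.9 kb, fell by 1.47 (SE 0.295, adjusted p = 0.025). Capza2 and St7 were not called. The 2 genes farthest away among those tested rose: Mdfic, at -1504 kb, by 3.61 ± 0.34 (SE, adjusted p = 2.45e-05), and Wnt2, at 682.6 kb, which was at least 3.48-fold higher against 3 reads, a call that quantile normalization did not give. Tfec was not called with equal FPKM totals (adjusted p = 0.0643 in limma). Mdfic was at 0.305, 0.359 and 0.907 FPKM in c-MYC and at 5.99, 5.23 and 5.77 FPKM in c-MYC/FOXO1AAA, but unlike Cav1 it was no higher there than in NL, with 4.84 to 5.76 FPKM. The calls of Tes and Tfec did not hold without c-MYC 2, c-MYC/FOXO1AAA 1 or c-MYC/FOXO1AAA 2, nor that of Tes without c-MYC 1 or that of Tfec without c-MYC 3, with adjusted p from 0.057 to 0.0933. The count then went from 4 to 2 without c-MYC 2, c-MYC/FOXO1AAA 1 or c-MYC/FOXO1AAA 2.

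In c-MYC against NL, Tes rose by 3.62 ± 0.39 (SE, adjusted p = 3.5e-05) on the log2 scale. Mdfic fell by 3.55 (SE 0.32, adjusted p = 8.67e-06), Met fell by 1.09 (SE 0.19, adjusted p = 0.0246) and Wnt2 was at least 8.18-fold lower. The difference of Met was -0.16 with equal FPKM totals (adjusted p = 1), which left 2 neighbors called in each direction. In c-MYC/FOXO1AAA against NL, Tes was higher by 1.76 ± 0.39 (SE, adjusted p = 0.0123), and Tfec, Met and Wnt2 had log2 differences of -1.41, -1.03 and -1.67 (adjusted p = 0.0127, 0.0326 and 0.00864). With equal FPKM totals, Met was no longer lower there, at 0.06, and Tfec and Wnt2 were no longer called, which left 3 neighbors higher and 0 lower. Over all 14017 genes, equal totals gave 7061 higher and 1895 lower in c-MYC against NL and 8129 and 2099 in c-MYC/FOXO1AAA against NL. Quantile normalization did not give the call of Tes there (adjusted p = 0.0585 in limma). The call of Met was lost in c-MYC against NL without NL 2, c-MYC 1 or c-MYC 3 and in c-MYC/FOXO1AAA against NL without NL 2, NL 3, c-MYC/FOXO1AAA 2 or c-MYC/FOXO1AAA 3, with adjusted p from 0.0516 to 0.109. Without c-MYC/FOXO1AAA 3 the call of Tes was lost as well (adjusted p = 0.0586), and without c-MYC/FOXO1AAA 1 that of Tfec (adjusted p = 0.0539). The count in c-MYC/FOXO1AAA against NL then went from 4 to 2 without c-MYC/FOXO1AAA 3.

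**Figure D4:**
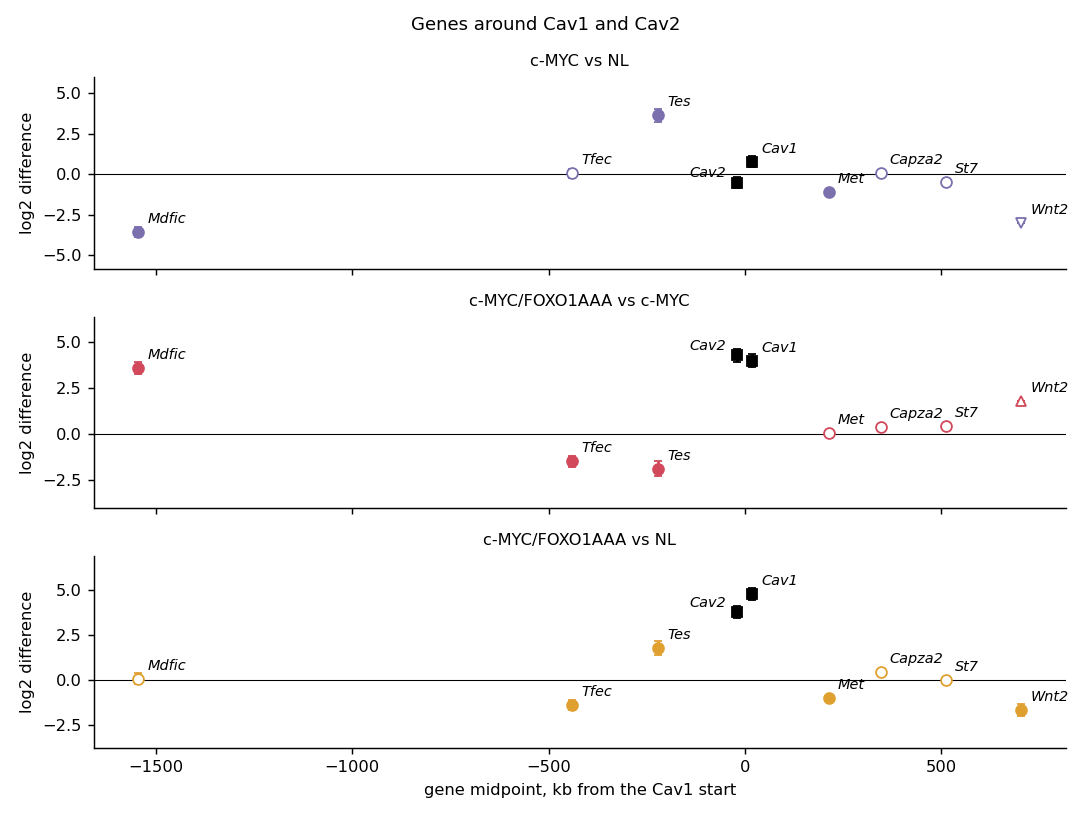
Log2 differences with standard errors (y axis) of Cav1, Cav2 (black squares) and their neighbors (circles, filled where called) against the distance of the gene midpoint from the Cav1 start in kb (x axis), in 3 comparisons; triangles are bounds for Wnt2 against 3 reads. Between c-MYC and c-MYC/FOXO1AAA, Cav1 and Cav2 lie at 4.01 and 4.31 and Mdfic, the highest neighbor with a fitted value, at 3.61.

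Markers of cell types that carry many caveolae, and of others such as hepatocytes, were set beside the 9 genes. Over all 9 marker lists, 22 of 57 tested genes rose and 5 fell between c-MYC and c-MYC/FOXO1AAA, where 15.9% of all genes rose and 12.7% fell. Of those that rose, the skeletal muscle genes entered the fit only through c-MYC/FOXO1AAA. With quantile normalization 21 markers rose and 10 fell, beside 2036 and 2159 of all 14017 genes. The 16 endothelial genes summed to 170 to 193 FPKM in NL, 87.0 to 138 in c-MYC and 93.1 to 121 in c-MYC/FOXO1AAA. The sums of the tumor groups overlapped, and none of the genes was at 0 reads throughout a group. Egfl7 alone was at 48.6 to 64.0 FPKM in c-MYC and 25.2 to 44.4 FPKM in c-MYC/FOXO1AAA, so the sums depend much on 1 gene. Of 15 tested, Cdh5 and Cldn5 rose and 0 fell between the tumor groups. The call of Cldn5 was lost without c-MYC 2, c-MYC/FOXO1AAA 1 or c-MYC/FOXO1AAA 3 (adjusted p from 0.0623 to 0.0782 in limma). Without c-MYC/FOXO1AAA 3, Kdr and Egfl7 were called lower (log2 differences of -1.22 and -1.06, adjusted p = 0.0234 and 0.0275), and with quantile normalization Kdr, Tie1 and Stab2 were. Pecam1, the endothelial adhesion molecule, was at 4.77, 4.40 and 7.935 FPKM in c-MYC and at 3.48, 2.14 and 5.145 FPKM in c-MYC/FOXO1AAA and was not called. Cdh5, the endothelial cadherin, rose from 4.53, 3.21 and 6.08 FPKM to 35.8, 24.0 and 18.1 FPKM, by 2.49 ± 0.28 (SE, adjusted p = 0.000143) on the log2 scale.

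The summed lists of smooth muscle cells, fibroblasts and skeletal muscle were higher in the same libraries as the caveolins. Smooth muscle and pericyte markers summed to 7.12 to 8.18 FPKM in NL, 9.05 to 17.3 in c-MYC and 117 to 173 in c-MYC/FOXO1AAA, with 3 of 6 tested genes higher and 0 lower between the tumor groups. Most of the c-MYC/FOXO1AAA sum came from Acta2, at 41.6 to 91.2 FPKM, and Des, at 57.4 to 69.3 FPKM, and Cspg4, Mcam and Notch3 were not called. With quantile normalization Cspg4 was called lower (adjusted p = 0.00671 in limma). Acta2 rose by 4.20 ± 0.43 (SE, adjusted p = 4.66e-05), while Myh11, the smooth muscle myosin, was too low to be tested, at 0.130 to 0.200 FPKM in c-MYC/FOXO1AAA and 0.282 to 0.370 in c-MYC. Fibroblast and stellate cell markers summed to 87.8 to 112 FPKM in NL, 13.2 to 41.7 in c-MYC and 323 to 397 in c-MYC/FOXO1AAA, and 5 of 9 rose and 0 fell. Dcn, the matrix proteoglycan decorin, rose by 5.90 ± 0.44 (SE, adjusted p = 3.89e-06), and Col1a1 was not called, at 10.3, 3.16 and 11.4 FPKM in c-MYC against 11.0, 40.7 and 23.6 FPKM in c-MYC/FOXO1AAA. At 178 to 312 FPKM, Dcn made up most of the c-MYC/FOXO1AAA sum of this list, and Col1a2, Lrat and Thy1 were not called either. Without c-MYC/FOXO1AAA 1, Col1a1 and Col1a2 were called higher (log2 differences of 2.11 and 1.93, adjusted p = 0.04 and 0.0129 in limma).

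Skeletal muscle markers summed to 0.886 to 1.06 FPKM in NL, 1.62 to 6.20 in c-MYC and 298 to 416 in c-MYC/FOXO1AAA. Of the 8 genes, 5 had 0 reads in all NL libraries, 3 had 0 reads in all c-MYC libraries and none did in c-MYC/FOXO1AAA. Those 3 were Myod1, Myog and Myf5, the myogenic transcription factors. In all, 6 of 7 tested genes rose and 0 fell between the tumor groups. The 6 were Acta1, Myod1, Myog, Myf5, Tnnt3 and Tnni2, which reached 1 FPKM only in c-MYC/FOXO1AAA. They entered the fit through that group alone and could hardly be called other than higher there, so the count does not test a rise. Acta1, the skeletal muscle actin, was at 120.2, 121.1 and 89.4 FPKM in c-MYC/FOXO1AAA, against 0.120, 0.0819 and 0.383 FPKM in c-MYC. Ckm, the muscle creatine kinase, was not called, at 3.54, 0.682 and 4.53 FPKM in c-MYC against 4.75, 8.72 and 3.80 FPKM in c-MYC/FOXO1AAA. Cav3 and Cavin4, the muscle forms of the families, were high in the same 3 libraries. The part of these cell types in the levels of caveolin and cavin genes was not tested.

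The remaining lists ran otherwise. Of the adipocyte markers, Adipoq, Plin1 and Lep were not in the table, and Fabp4 and Cidec summed to 15.5 to 35.7 FPKM in c-MYC and 8.04 to 20.95 in c-MYC/FOXO1AAA. Neither was called there. The mesothelial list, with Msln and Upk3b, summed to 0.393 to 0.642 FPKM in c-MYC and 3.93 to 8.63 in c-MYC/FOXO1AAA, and both of these genes rose. The call of Upk3b (adjusted p = 0.0333) was lost without c-MYC 2, c-MYC/FOXO1AAA 2 or c-MYC/FOXO1AAA 3 (adjusted p from 0.112 to 0.131), with quantile normalization (0.266) and with a pseudocount of 0.1 (0.0654). Macrophage markers, among them Adgre1 and Csf1r, summed to 43.3 to 55.5 FPKM in c-MYC and 41.1 to 66.9 in c-MYC/FOXO1AAA, with 1 of 6 higher. That gene was Clec4f, named after its values were seen, and its call (adjusted p = 0.0237) was lost without c-MYC/FOXO1AAA 1 or 2 (adjusted p = 0.0541 and 0.087). Biliary markers summed to 17.6 to 32.4 FPKM in c-MYC and 30.2 to 38.1 in c-MYC/FOXO1AAA, with 2 of 4 tested higher and 1 lower. Krt19 was among those that rose, and Krt7 was not called. Krt7 was called lower with quantile normalization and without c-MYC 3 or c-MYC/FOXO1AAA 2 (adjusted p = 0.0242, 0.0318 and 0.0321 in limma). Of the 6 hepatocyte markers, 1 was higher and 4 lower between the tumor groups, with Ttr called lower and Alb not called.

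The same lists were read between NL and the tumor groups. Of 7 skeletal muscle, 6 smooth muscle and pericyte and 9 fibroblast and stellate markers tested, 1, 3 and 1 rose and 0, 1 and 5 fell in c-MYC. For c-MYC/FOXO1AAA against NL, 7, 5 and 4 rose and 0, 0 and 1 fell. Without c-MYC/FOXO1AAA 1 the call of Dcn there was lost (adjusted p = 0.0752 in limma). Of the skeletal muscle genes tested, all but Ckm reached 1 FPKM only in c-MYC/FOXO1AAA. The calls of Des, Notch3 and Col1a1 in c-MYC against NL were lost in several settings. In c-MYC against NL, Cav1 and Cav2 overlapped. Of 15 endothelial markers tested there, 7 fell and 0 rose, with neither Pecam1 nor Cdh5 called. Endothelial markers split otherwise with equal FPKM totals, where 3 rose, Pecam1 by 1.27 (adjusted p = 0.0295), Emcn and Egfl7, and 4 fell, with Kdr, Tek and Tie1 no longer called. Without c-MYC 2 the call of Tie1 was lost as well (adjusted p = 0.0856). Over all lists, 9 of 57 tested markers rose and 26 fell in c-MYC against NL, beside 24.5% and 23.6% of all genes. With equal FPKM totals, 20 markers rose and 20 fell, beside 7061 and 1895 of all 14017 genes. In c-MYC/FOXO1AAA against NL, 18 rose and 20 fell, beside 31.2% and 26.6% of all genes. With equal FPKM totals, 29 rose and 12 fell there, beside 8129 and 2099 of all 14017 genes. On the deposited scale, 9 of the endothelial genes fell there, and Cdh5 alone rose, by 2.45 ± 0.26 (SE, adjusted p = 3.81e-05). When FPKM totals were set equal, 4 of the endothelial genes rose, Cdh5, Emcn, Cldn5 and Egfl7, and 3 fell, since Tie1, Eng, Vwf, Plvap, Esam and Robo4 were no longer called. The call of Robo4 was also lost without NL 4, c-MYC/FOXO1AAA 1 or c-MYC/FOXO1AAA 2 (adjusted p from 0.0593 to 0.108) and that of Esam without c-MYC/FOXO1AAA 2 (adjusted p = 0.0584).

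**Figure D5:**
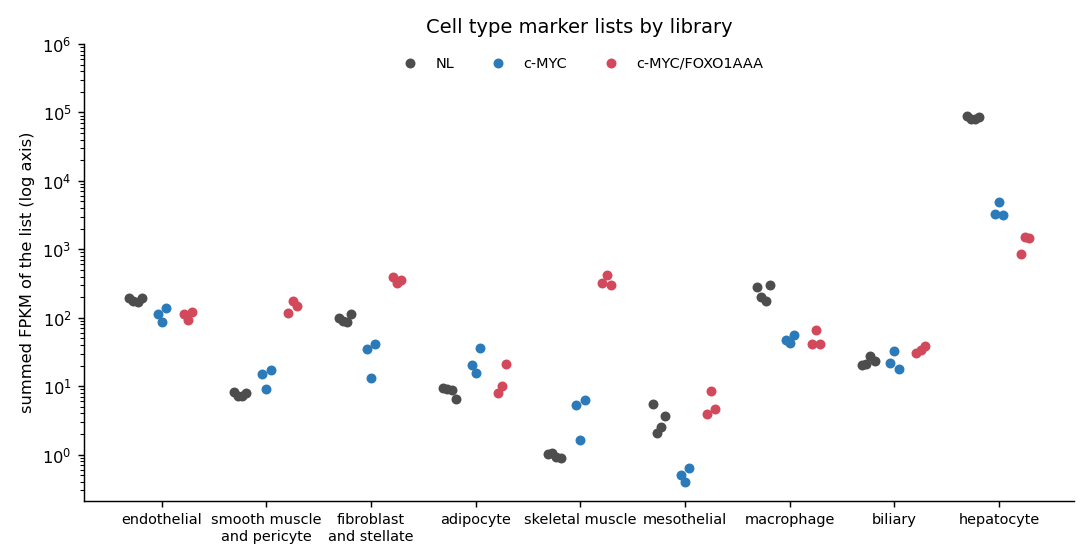
Summed FPKM (log axis) of each cell type marker list in each of the 10 libraries; dots are libraries and colors give the groups. The c-MYC/FOXO1AAA libraries lie above all others for the smooth muscle, fibroblast and skeletal muscle lists, and among the c-MYC libraries for the endothelial list.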

How the data were processed

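Bulk RNA sequencing of mouse liver was available as 1 table of 10 libraries. The authors counted reads per Ensembl gene on GRCm38, assigned symbols and deposited log2 FPKM values in which a prior count of 2, adjusted to library size, had been added before the logarithm. The aligner and the counter are not given in the sources used here. Of 17069 entries, 372 without a symbol were left out, and 16697 genes remained. FPKM was obtained by raising 2 to the deposited value. Whole reads were recovered from the low values, with 1 solution for 98.19% of genes at a tolerance of 0.004 reads, and served only for depth and for bounds against 3 reads. Bounds and read numbers cover counting error only, since reads without molecular identifiers are not independent molecules.

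The 14017 genes that reached 1 FPKM in 3 or more libraries were fitted with limma 3.58.1 in R 4.3.3 on the log2 values of all 10 libraries, with 1 mean per group, trend and robust variance, and treat against a 1.5-fold change. Two-sided p-values were adjusted by Benjamini and Hochberg over all genes, and a gene was called at an adjusted p under 0.05. The procedure was tested on simulated data. The 9 genes and all lists were chosen with earlier results of these data known, and the 9 genes were given no test. Named by rule are the 9 genes, each companion and neighbor called in the comparison at hand, the first 2 genes of each marker list, and the 5 genes nearest to Cav1 and to Cavin1. Further markers and neighbors were named after their values were seen. The motifs were picked after the values were known. Promoters came from RefSeq.

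Groups came from the sample labels. Whether same-numbered libraries of 2 groups deviated together was checked, and the correlations of their deviations ran from -0.0398 to 0.0272, so the numbers do not pair the libraries. Alternatives were other pseudocounts, scalings, filters, fold thresholds and variance models, a replicate block, a fit of 2 groups and leaving out each library.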

Additional observations from a re-analysis of the deposited data

Results flagged for a closer look

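Of 24 sets of 4 NL libraries examined for a library far from the others, 2 exceeded the critical value for 4 values, and chance alone marks about 1 set in 20. Cav3 in NL had a gap of 1.0 of the whole range, because NL 2 had 1 read and the other 3 libraries had 0. The summed FPKM of the 7 signaling partners in NL had a gap of 0.835 of the range. NL 2 stood at 89.04 FPKM and the others at 117.0 to 123.4, with Egfr at 46.1 FPKM in NL 2 and between 72.1 and 79.3 FPKM in the others.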

How the results depend on the processing

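The counts of the 9 genes without overlap between groups (9, 8 and 6) were 9, 8 to 9 and 6 to 7 under both scalings and with any library left out. Leaving out a library cannot make separate groups overlap, so those counts could only stay or rise and do not test the separation. Of 416 values of the 9 genes under alternatives, 374 moved by less than the spread between libraries, but many of these could not move. A fit of 2 groups, or leaving out a library of the group not compared, gives the same difference of means. With equal FPKM totals, 19 of 26 values moved by more than that spread, and 15 of 26 did with a pseudocount of 1. With equal FPKM totals, 22 companions instead of 12 were called in c-MYC against NL (18 higher, 4 lower, beside 7061 and 1895 of all genes). Met then turned from -1.03 to 0.0645 in c-MYC/FOXO1AAA against NL. Without a fold threshold the companion count was 20. A 2-fold threshold gave 6 companions instead of 15 in c-MYC/FOXO1AAA against c-MYC, 2 neighbors instead of 4 there, and 0 instead of 4 in c-MYC/FOXO1AAA against NL. A pseudocount of 1 gave 2 and 1 neighbors in these comparisons, and a filter at a mean FPKM of 5, which tests fewer genes, gave 0 and 1, and in c-MYC against NL 1 neighbor and 18 instead of 35 markers. With a library left out, neighbor counts ranged from 2 to 4 in c-MYC/FOXO1AAA against c-MYC and from 2 to 4 in c-MYC/FOXO1AAA against NL. Over all genes, the share of higher calls moved by over 10 points only with equal FPKM totals, in the comparisons with NL. The replicate block kept every count of calls within 1.5 times but lost Abca1 in c-MYC against NL (adjusted p = 0.1 in limma) and Ehd3 in c-MYC/FOXO1AAA against NL (adjusted p = 0.0553 in limma). In limma it also lost the markers Des, Notch3 and Col1a1 (adjusted p = 0.0894, 0.0945 and 0.112) and gained Egfl7 (adjusted p = 0.0473) in c-MYC against NL, and lost Upk3b and Clec4f (adjusted p = 0.0677 and 0.0512) in c-MYC/FOXO1AAA against c-MYC. The cause of these shifts was not tested. Few reads limit Cav1, Cav2, Cav3, Cavin3 and Ehd2 in NL.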
